A study of Mus musculus with 13 samples.

Results

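Small nucleolar RNAs and the genes that host them were followed in Neuro2a cells, a mouse neuroblastoma line, after a simulated failure of cryostorage. The members are the genes whose GRCm38 symbol starts with Snord, Snora, Scarna or Snhg, plus Gas5, with a value above 0 in at least 3 of the 13 libraries. There are 146 of them among the 34857 genes of each table: 130 small RNAs, of which 80 are C/D box, 41 H/ACA box and 9 small Cajal body RNAs, and 16 host genes. A further 5 genes with such a symbol were above 0 in under 3 libraries, 2 members were above 0 in exactly 3, and 118 in all 13. The experimental cells, frozen in 10% DMSO, sat in a vessel whose liquid nitrogen evaporated over 10 h, were held for 24 h while settling at 4 °C, were refrozen at -80 °C for 72 h and were then thawed at 37 °C and plated. Control cells had the same freezing medium, thaw and plating but stayed in normal cryostorage. There were 3 experimental and 3 control libraries at passage 6, when the cells looked normal, and 4 experimental and 3 control libraries at passage 1, soon after rapid growth had returned. All come from this single line and from poly(A)-selected RNA.

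Small nucleolar RNAs pair with ribosomal RNA and guide its chemical modification: C/D box RNAs direct ribose methylation, H/ACA box RNAs direct pseudouridylation, and the Cajal body RNAs do the same for spliceosomal RNAs. In mammals most are cut out of the introns of host genes, which are either genes for ribosomal and nucleolar proteins or long noncoding genes such as Gas5 and the Snhg genes, whose spliced exons carry little coding capacity and are often removed by nonsense-mediated decay. A mature small nucleolar RNA has no poly(A) tail. What share of each small RNA value here came from the mature RNA, from an unspliced host or from an excised intron was not measured.

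The letters that define the classes are shown for 8 of the small RNAs described below, read from the GENCODE M21 transcripts on GRCm38. They are those with the highest mean level among the small RNAs named by the rule given at the end, with Snord58b left out. For C/D box RNAs the capitals mark the C box TGATGA in the first 20 bases and the D box CTGA in the last 20, and for H/ACA box RNAs the ACA near the 3′ end.
Snord34: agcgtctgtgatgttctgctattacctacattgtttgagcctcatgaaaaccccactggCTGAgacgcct
Snord49a: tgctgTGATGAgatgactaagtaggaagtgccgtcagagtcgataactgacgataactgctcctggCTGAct
Snord32a: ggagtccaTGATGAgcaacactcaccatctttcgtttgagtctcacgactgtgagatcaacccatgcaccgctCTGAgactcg
Snord49b: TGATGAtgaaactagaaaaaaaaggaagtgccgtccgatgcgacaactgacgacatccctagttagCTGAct
Snord83b: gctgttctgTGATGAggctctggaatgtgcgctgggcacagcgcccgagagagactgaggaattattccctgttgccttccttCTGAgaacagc
Snord59a: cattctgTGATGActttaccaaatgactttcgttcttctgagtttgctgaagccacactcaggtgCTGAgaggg
Snora41: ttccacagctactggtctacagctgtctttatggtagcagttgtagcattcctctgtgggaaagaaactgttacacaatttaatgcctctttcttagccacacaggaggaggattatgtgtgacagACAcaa
Snora31: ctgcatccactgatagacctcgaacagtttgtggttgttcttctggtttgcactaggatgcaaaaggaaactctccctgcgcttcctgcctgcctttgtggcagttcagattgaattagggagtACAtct
Both boxes were found in 49 of the 80 C/D members (61.3%), in 0 of the 41 H/ACA members and, on the reverse strand, in 0 of either. Over all 1559 annotated small nucleolar and Cajal body RNAs the share was 20.1%. An ACA in the last 8 bases was found in 39 of the 41 H/ACA members and in 7 of the 80 C/D members. Snord34 holds a D box but no exact TGATGA in its window, and no match says only that those letters are not there.

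Snord34 lies at chr7:45126601-45126670 and Snord32a at chr7:45127382-45127464, both on the minus strand in introns of Rpl13a, a large-subunit ribosomal protein gene. Snord49b at chr11:62603079-62603150 and Snord49a at chr11:62603450-62603521 lie on the plus strand in introns of the noncoding gene 2410006H16Rik. Snord83b lies at chr15:80078498-80078591, on the minus strand in an intron of the ribosomal protein gene Rpl3. Snora41 lies at chr1:63179004-63179135 in Eef1b2, a translation elongation factor subunit, Snora31 at chr14:75847905-75848034 in Tpt1, the translationally controlled tumour protein, and Snord59a at chr10:128084143-128084216 in Atp5b, the beta subunit of ATP synthase, each on the plus strand and in an intron.

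Levels are given as FPKM, which divides the fragments of a gene by its length and by the size of the library. Whether this makes the levels of such short RNAs comparable with each other or with those of longer hosts was not tested. Depth could be read from single-exon genes, whose lowest values pile up at the value of 1 fragment: 177 to 214 genes sat there per library, against 7 to 9 at a typical place. That value puts the library sizes between 13.7 and 19.4, counted in units of the 1e+06 fragments to which FPKM is scaled. On this scale the small RNAs were shallow. The median over the libraries was under 1 fragment for 79 of the 130, at least 5 for 21 and at least 100 for 0, and Snord34, the highest, had a median of 22.4 fragments. Such fragment numbers are estimates and were not used in any test.

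Where a small RNA lies in its host went with whether it was seen at all. Of the 57 small RNAs inside an annotated intron, 33 had a mean of at least 1 FPKM, with a median of 1.28 FPKM and a highest mean of 22.6 FPKM. Of the 55 inside an annotated exon of some transcript of the host, 0 reached 1 FPKM, 53 were under 0.1 FPKM, and the median was 0.00679 FPKM. The 9 that lie partly in an exon had a median of 0.475 FPKM, and the 9 with no annotated host 1.42 FPKM. The median lengths of the intronic and exonic groups, 93 and 86 bases, were close. A fragment that fits both a small RNA and an exon of its host can be counted for either, and how the authors' counting shared them out is not stated, so a value near 0 for an exonic small RNA is not a measure of that RNA.

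**Figure D1:**
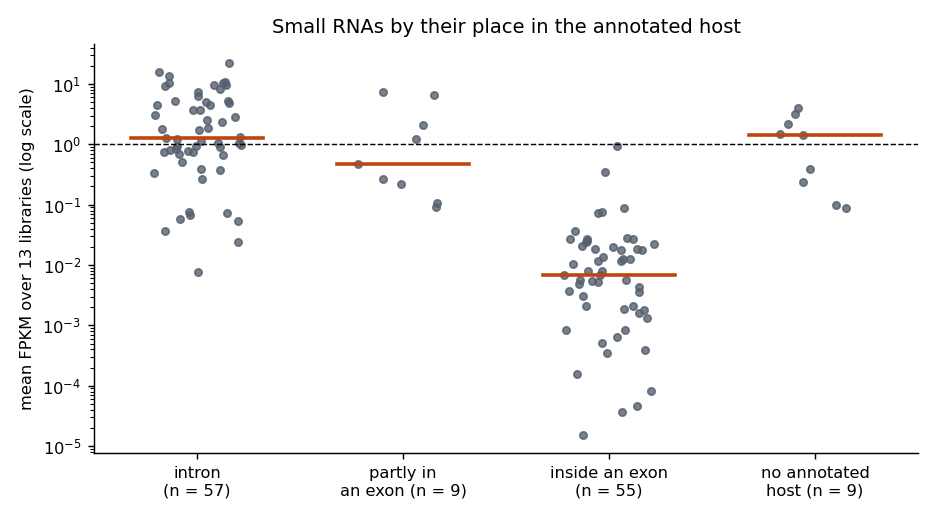
Mean FPKM over the 13 libraries (log scale) of each of the 130 small RNAs, by place in the annotated host; each point is 1 small RNA, red lines are medians and the dashed line is 1 FPKM. None of the 55 points inside an exon reaches the dashed line, against 33 of the 57 in introns.

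Of the 130 small RNAs, 121 lie within an annotated host on the same strand: 33 in ribosomal protein genes and 20 in Snhg genes or Gas5. Genes with an Snhg symbol in this annotation, and Gas5, are thus mostly not the hosts of the small RNAs that could be followed. The noncoding gene 2410006H16Rik, which holds Snord49a, Snord49b and Snord65, falls outside that symbol rule. Snord87, in an intron of Snhg6, was the only small RNA of those 20 with a mean above 1 FPKM, at 5.23 FPKM, while Snord78, Snord47 and both entries of Snord80, all inside Gas5 exons, had means of 0.349 FPKM and below. Snora16a, Snora43 and Snord80 each have 2 overlapping entries between which fragments can be split, so their values are uncertain.

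The line's label was checked against its markers: the neuroblastoma genes Phox2a, Hand2, Gata3, Dbh and Th were above 1 FPKM in all 13 libraries. Transcripts of other tissues were present unevenly. Passage 6 experimental libraries 2 and 3 held 151 and 128 FPKM of 10 summed liver transcripts, with Alb and Fabp1 among them, against at most 0.967 FPKM in the other libraries, and 39.0 and 28.5 FPKM of 10 brain myelin and glia transcripts, against at most 3.57 FPKM. Summed colon epithelium transcripts stood at 118, 8.73 and 9.51 FPKM in passage 6 experimental libraries and 124 to 293 FPKM in their controls, and at 8.40 to 219 FPKM in passage 1 experimental libraries and 219 to 512 FPKM in their controls. Summed cartilage transcripts stood at 18.6, 17.9 and 20.3 FPKM in passage 6 experimental libraries and 34.5, 42.9 and 58.4 FPKM in their controls, so they separate those groups in experimental library 1 too, and leaving out libraries 2 and 3 does not remove that difference. At passage 6, 6 of 7 tested cartilage genes and 13 of 19 tested colon genes were called lower. The part of these tissue transcripts in the results below was not tested, and results at passage 6 are therefore also given without experimental libraries 2 and 3. In bulk RNA, fewer cells of a type and less RNA per cell cannot be told apart.

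At passage 6, 11 small RNAs fell and none rose. All 11 changes came from limma on log2(FPKM + 1) with Benjamini-Hochberg adjustment over all genes, and a gene is called where the adjusted p is under 0.05. Of the 130 small RNAs 51 passed the filter of at least 1 FPKM in at least 3 libraries, so 79 were not tested, and 5 of the 51 passed only because of their 3 controls. Passing in this way favours genes that are higher in controls. The calls of 2 of these 5 genes, Snord82 and Snord53, are therefore descriptions that support nothing, and 9 calls stand without them. The 11 calls were 6 C/D and 5 H/ACA RNAs. Among all 12458 genes tested, 19.8% were called, 10.8% lower and 8.98% higher. Of the calls over all genes 45.5% were higher, and 57.6% under median-of-ratios scaling; the small RNA calls stayed lower under either scaling tried. Under 10 FPKM, where nearly all these RNAs lie, 11.1% of the tested genes were called lower. The groups did not overlap for 17 of the 51, where 41.7% of all genes did not overlap. The median log2 change of the 51 was -0.29, beside -0.04 over all genes tested, and 39 of them were below 0.

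Snora31, an H/ACA box RNA shown above, had 6.39, 5.75 and 8.04 FPKM in experimental libraries, against 16.5, 13.9 and 12.2 FPKM in control libraries. Every experimental library lay well below every control. The mean was 6.73 ± 1.18 FPKM in experimental cells and 14.2 ± 2.14 FPKM in control cells (SD, n = 3 each), a log2 change of -0.98 (SE 0.13, limma adjusted p = 0.00507). It rested on 10.3 or more fragments in each of these libraries. Its change was -1.03 (limma adjusted p = 0.0137) with experimental library 1 alone, and its call held in all 14 alternatives tried.

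Snord59a, which in human guides methylation of the small-subunit rRNA, had 3.53, 8.31 and 3.98 FPKM in experimental libraries and 14.0, 12.1 and 12.2 FPKM in control libraries. The groups were apart, with experimental library 2 nearer to the controls than the other two. The log2 change was -1.21 (SE 0.25, limma adjusted p = 0.0186). Leaving out any 1 control, experimental library 3 or the minimum FPKM lost the call, with an adjusted p of up to 0.0699. Experimental library 1 alone gave a change of -1.60 (limma adjusted p = 0.00412).

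Snora20, an H/ACA RNA in the chaperonin gene Tcp1, had 1.60, 3.01 and 3.12 FPKM in experimental libraries and 5.16, 6.63 and 5.33 FPKM in control libraries. Here the lowest value of all was that of experimental library 1, which carries no excess of liver or brain transcripts. The log2 change was -0.93 (SE 0.18, limma adjusted p = 0.0158). Its call was lost without a minimum FPKM and without control library 2 or 3, at up to 0.0650. Snord110, in Nop56, had 1.80, 2.66 and 2.65 FPKM in experimental libraries and 6.62, 4.64 and 4.68 FPKM in control libraries. These groups also stood apart, at a log2 change of -0.90 (SE 0.15, limma adjusted p = 0.0100) that held in all 13 alternatives.

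Snord82, in the nucleolin gene Ncl, averaged 0.439 ± 0.275 FPKM in experimental cells and 1.95 ± 0.385 FPKM in control cells (SD, n = 3 each), a log2 change of -1.05. It passed the filter through its controls alone, as did Snord53 of Wdr43, and the controls held only 1.61 to 2.33 fragments of it. For Snord53 the log2 change was -0.72, and its call was lost without control library 2 or 3 and with experimental library 1 alone, at a limma adjusted p of up to 0.0708. In all, 4 of the 11 had under 5 fragments in at least 1 control library. Experimental libraries of passage 6 held fewer, with minima of 0.174 fragments for Snord82, 0.842 for Snord53, 1.93 for Snord110 and 1.98 for Snora19. The minima were 3.24 for Snora20, 4.01 for Snord91a and 4.13 for Snord59a, and at least 8.36 for the others of the 11.

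Snora41, in the elongation factor gene Eef1b2, had 14.6, 10.6 and 11.0 FPKM in experimental libraries and 18.8, 17.9 and 15.3 FPKM in control libraries. The highest experimental value came close to the lowest control value, at a log2 change of -0.50 (SE 0.13, limma adjusted p = 0.0339). The call was lost when any 1 library other than experimental library 1 was left out, at up to 0.115. It was also lost without a minimum FPKM and with experimental library 1 alone. The other calls were Snord58b of Rpl17 with a log2 change of -0.52, Snord91a of Tsr1 with -0.57, Snora19 of Eif3a with -0.57 and Snora2b of Kansl2 with -0.45; the last was named after its values were seen. Their adjusted p by limma ranged over 0.00888 for Snora2b, 0.0284 for Snord91a, 0.0302 for Snora19 and 0.0345 for Snord58b. Over the alternatives it reached 0.101 for Snord91a, 0.161 for Snora19 and 0.188 for Snord58b. Snora2b lies partly in an exon of Kansl2, so a fragment that fits both can be counted for either.

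**Figure D2:**
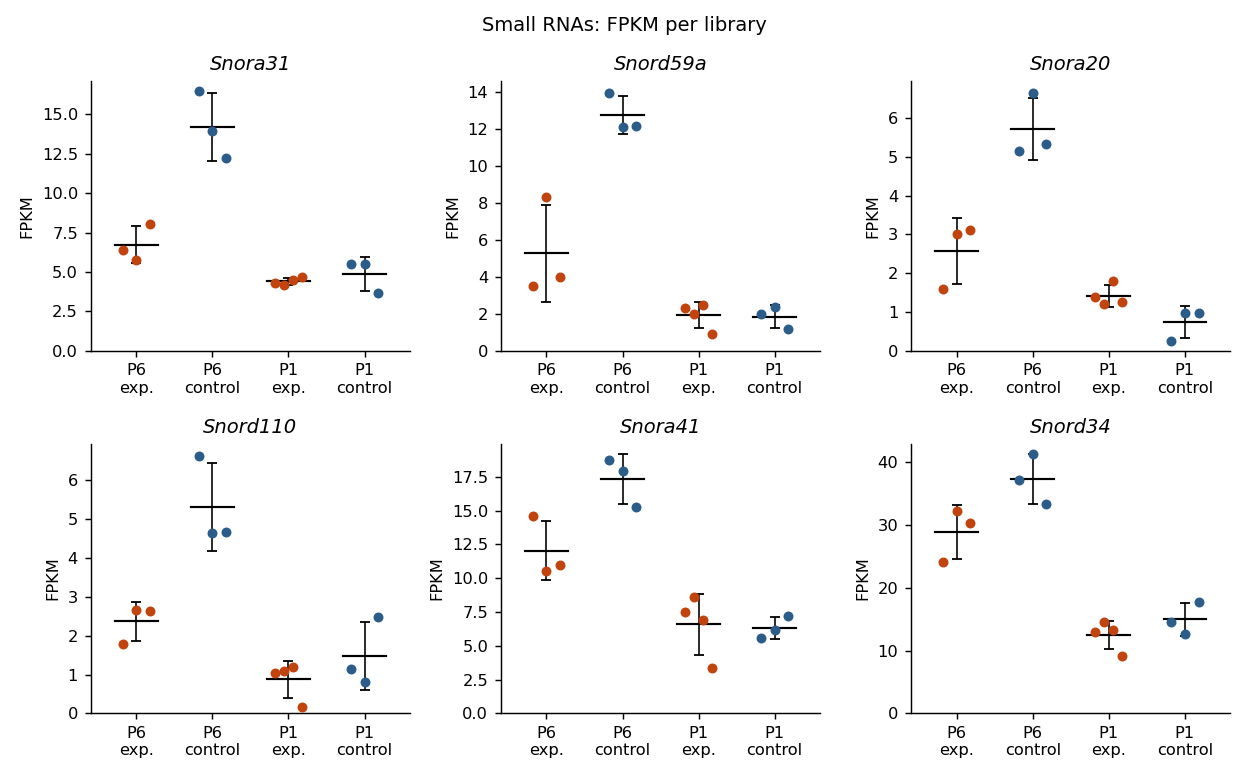
FPKM of 6 small RNAs in each library; points are libraries, lines are group means and bars 1 SD, with experimental (red, exp.) left of control (blue) and passage 6 (P6) left of passage 1 (P1). The P6 experimental points lie below the P6 control points in all 6 panels, while the P1 groups overlap in all but the Snora20 panel.

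The small RNAs with the highest levels did not all follow. Snord34, which in human guides methylation of the large-subunit rRNA, had 24.1, 32.3 and 30.4 FPKM in experimental libraries and 37.2, 41.4 and 33.4 FPKM in control libraries, a log2 change of -0.36 (SE 0.12) at a limma adjusted p of 0.0747. Its groups were apart but close. Snord32a, from the same host, had 21.2, 19.6 and 17.2 FPKM in experimental libraries and 17.6, 20.1 and 17.0 FPKM in control libraries, overlapping throughout, at a log2 change of 0.08 (SE 0.09). Snord83b had 15.1, 18.8 and 14.2 FPKM in experimental and 13.1, 15.97 and 11.7 FPKM in control libraries, at 0.23 (SE 0.13). Snord49a and Snord49b, neighbours in 1 host, had log2 changes of -0.43 (SE 0.20) and -0.06 (SE 0.15), and neither was called. Snord49a reached 25.8 FPKM in experimental library 1, level with its controls at 25.2, 22.0 and 25.5 FPKM, and 15.3 and 14.0 FPKM in experimental libraries 2 and 3.

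The counts depended on single libraries. Without passage 6 experimental library 1 there were 17 lower small RNAs of 45 tested. Without control library 1, 2 or 3 there were 5 of 47, 4 of 47 and 5 of 44. The counts over all genes moved in the same way. Without experimental library 1, 2411 of 12305 genes were lower, and without those controls 364 of 12252, 291 of 12254 and 349 of 12236. With experimental library 1 alone against the 3 controls, its spread is taken from the controls. The filter can then be passed by the controls alone but not by the experimental side alone, which favours genes higher in controls. Snord82, at 0.158 FPKM against a control mean of 1.95 FPKM, and Scarna3a, at 0.751 against 1.53 FPKM, passed in that way. These 2 support nothing. The log2 change was -1.36 for Snora20, -1.16 for Snord110, -0.54 for Snora2b and -0.61 for Snord34, and it was 0.60 for Snord104. Scarna3a and Snord104 were named after their values were seen.

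At passage 1, 36 small RNAs were tested, 3 fell and none rose. Over all 12469 genes tested 30.4% were called, 18.9% lower and 11.5% higher. Of these calls 37.8% were higher, against 48.9% under equal FPKM totals and 55.7% under median-of-ratios scaling. Of the tested genes under 10 FPKM 19.4% were called lower, so the members' share lay below these. The median log2 change was -0.10, beside -0.05 over all genes, and 19 of the 36 were below 0. The groups did not overlap for 6 of the 36, against 42.6% of all genes. Snora57, an H/ACA RNA with no annotated host, had 1.33, 1.39, 0.773 and 1.11 FPKM in experimental libraries and 2.56, 2.48 and 1.98 FPKM in control libraries. The groups were apart, at a log2 change of -0.64 (SE 0.12, limma adjusted p = 0.00660). It rested on only 1.92 to 3.81 fragments in experimental and 5.26 to 6.46 fragments in control libraries. It overlaps Lbhd1 on the other strand, and the strand setting of the counting is not stated.

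Snord49a, which in human guides methylation of the large-subunit rRNA, had 9.82, 10.1, 7.07 and 7.50 FPKM in experimental libraries of passage 1 and 16.4, 12.1 and 13.8 FPKM in control libraries. All 4 experimental values were below the lowest control, at a log2 change of -0.65 (SE 0.14, limma adjusted p = 0.0108). Its neighbour Snord49b gave -0.38 (SE 0.13, limma adjusted p = 0.0631), and the host 2410006H16Rik gave -0.07 (SE 0.14, limma adjusted p = 0.733). Snord58b had 7.14, 6.28, 3.55 and 3.89 FPKM in experimental and 8.03, 9.33 and 7.72 FPKM in control libraries, at -0.63 (SE 0.20, limma adjusted p = 0.0477), and lost the call in 11 of 15 alternatives. Control library 1 and experimental library 4 were both low in cartilage transcripts. Without them the fit called 2 small RNAs, Snord66 and Snord98, both higher, and none of the 3. These 2 were named after their values were seen. With 2 controls left, controls alone could not pass the filter, which favours genes higher in experimental cells. Snord66 averaged 2.27 FPKM in experimental and 0.511 FPKM in control libraries, and Snord98 1.48 and 0.657 FPKM. Both passed through their experimental libraries alone, so these calls support nothing.

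Of the 11 hosts of the small RNAs called at passage 6, 2 were called, where 19.8% of all genes were. Nop56, a core protein of C/D box particles, fell by 0.39 on the log2 scale (SE 0.05, limma adjusted p = 0.00479), and the ribosomal protein gene Rpl17 fell by 0.84 (SE 0.13, limma adjusted p = 0.00689). Tpt1 gave -0.09 (SE 0.08), Atp5b 0.05 (SE 0.04), Tcp1 -0.06 (SE 0.04), Ncl 0.02 (SE 0.05), Eef1b2 0.03 (SE 0.09), Kansl2 0.06 (SE 0.05), Wdr43 -0.07 (SE 0.05), Eif3a -0.06 (SE 0.05) and Tsr1 -0.15 (SE 0.06), with limma adjusted p of at least 0.0989. The ratio of the small RNA to its host, both with 1 FPKM added, was lower in every experimental library than in every control for 10 of the 11 pairs and higher for Snord58b and Rpl17. An exact two-sided permutation test of each gave p = 0.10, the smallest that 3 against 3 libraries can give, which also is the value adjusted over the 11 pairs, so none can pass. Since the small RNAs of these pairs were chosen as the called ones, and Snord82 and Snord53 passed the filter through their controls alone, the separation partly repeats that choice. At passage 1 the same ratio separated the groups in 1 of the 11 pairs, Snora20 and Tcp1, where it was higher in experimental libraries (exact permutation p = 0.0571, adjusted over the 11 pairs 0.629). The passage 1 controls held only 0.463 to 2.26 fragments of Snora20. Snora2b lies partly in an exon of Kansl2, so the ratio of that pair is uncertain at both passages. Snora19, Snord53 and Snord82 were below the filter at passage 1, where no library held more than 0.564 fragments of Snord82. For these pairs a lack of separation at passage 1 cannot be read as no change.

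For Snora31 and Tpt1 the log2 ratio averaged -4.32 ± 0.279 in experimental libraries of passage 6 and -3.43 ± 0.240 in control libraries (SD, n = 3 each). For Snord59a and Atp5b it averaged -5.82 ± 0.572 in experimental libraries and -4.56 ± 0.119 in control libraries. At passage 1 the ratio of Snora31 to Tpt1 was -5.96 ± 0.0340 in 4 experimental libraries and -5.95 ± 0.287 in 3 control libraries. That of Snord59a to Atp5b was -7.51 ± 0.404 in experimental and -7.54 ± 0.319 in control libraries. The groups overlapped in both pairs. The passage 1 libraries held only 1.27 to 3.09 fragments of Snord59a, so the added 1 FPKM weighs on its ratio there.

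**Figure D3:**
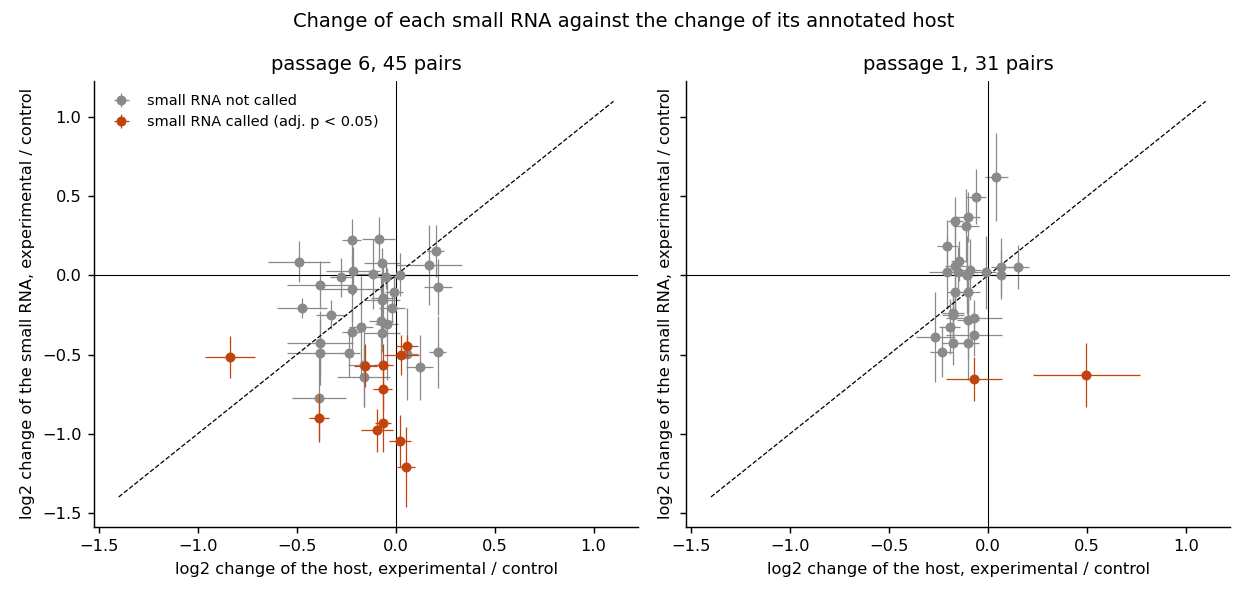
Fitted log2 change (experimental over control) of each tested small RNA against that of its annotated host, 45 pairs at passage 6 (left) and 31 at passage 1 (right); bars are 1 SE, red points are called small RNAs and the dashed line marks equal change. At passage 6 the 11 red points lie between -1.21 and -0.45 on the vertical axis, while 9 of their hosts lie between -0.15 and 0.06 on the horizontal axis.

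The 79 annotated hosts that carry no Snhg name were counted as well. At passage 6, 77 were tested, 5 were higher and 16 lower, with a median log2 change of -0.11, and at passage 1, 77 were tested, 3 were higher and 17 lower, with a median of -0.08. The 24 ribosomal protein hosts gave 1 higher and 7 lower at passage 6, with 22 of 24 below 0, and 1 higher and 10 lower at passage 1. Against 10.8% and 18.9% lower over all genes at passages 6 and 1, these are 7 of 24 and 10 of 24.

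Of the 16 Snhg and Gas5 host genes 12 were tested at each passage. At passage 6, 4 fell, Snhg15, Snhg14, Snhg17 and Snhg1, and none rose; 7 did not overlap between the groups, and the median log2 change was -0.29. Over all genes 10.8% were called lower there, and 41.7% did not overlap. Snhg14 passed the filter through its controls alone, so its call is a description, and 3 calls stand without it. At passage 1, 4 fell, Gas5, Snhg14, Snhg5 and Snhg6, and none rose; 6 did not overlap, and the median was -0.14. Over all genes 18.9% were called lower and 42.6% did not overlap at passage 1, so 4 of 12 and 6 of 12 give no result particular to the hosts. Snhg9, Snhg11, Snhg18 and Snhg7os were below the filter at both passages.

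Snhg15 (chr11:6525591-6528760, minus strand), a noncoding host of Snora9, had 20.01, 20.5 and 19.2 FPKM in experimental libraries of passage 6 and 38.8, 36.2 and 35.3 FPKM in control libraries. The experimental values lay close together, far under every control, in the libraries with and without liver and brain transcripts alike. The mean was 19.9 ± 0.620 FPKM in experimental cells and 36.8 ± 1.82 FPKM in control cells (SD, n = 3 each), a log2 change of -0.85 (SE 0.05, limma adjusted p = 0.000794), which is 1.81-fold lower. Experimental library 1 alone gave -0.85 (limma adjusted p = 0.00415), and the call held in all 14 alternatives. At passage 1 it had 17.4, 15.2, 14.8 and 12.6 FPKM in experimental libraries and 14.3, 15.1 and 16 FPKM in control libraries, which overlap, at -0.02 (SE 0.10).

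Snhg17 (chr2:158353700-158361580, minus strand) had 14.6, 15.1 and 15.0 FPKM in experimental libraries of passage 6 and 20.3, 19.9 and 19.6 FPKM in control libraries. Again no value of one group came near the other, at a log2 change of -0.40 (SE 0.04, limma adjusted p = 0.00296) that held in all 14 alternatives. At passage 1 it stood the other way round, with 11.1, 9.21, 9.21 and 9.30 FPKM in experimental and 8.12, 8.32 and 8.44 FPKM in control libraries, at 0.20 (SE 0.07, limma adjusted p = 0.0614), a value that passed the threshold under equal FPKM totals and under median-of-ratios scaling.

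Snhg14 (chr7:59307924-59975759, minus strand), the imprinted transcript that runs through small nucleolar RNA clusters and antisense to Ube3a, had 1.36, 1.103 and 0.946 FPKM in experimental libraries of passage 6 and 2.35, 2.25 and 2.27 FPKM in control libraries. The log2 change was -0.63, and it passed the filter there through its controls alone. At passage 1 it had 1.04, 1.00, 1.27 and 1.33 FPKM in experimental and 1.76, 1.74 and 1.73 FPKM in control libraries. The log2 change there was -0.35 (SE 0.08, limma adjusted p = 0.0141). The call was lost without any 1 control, at up to 0.0577. It was also lost under the replicate block and without control library 1 and experimental library 4 together, at up to 0.0748. It was thus below its controls at both passages. Without strand in the counting its fragments cannot be told apart from those of Ube3a.

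**Figure D4:**
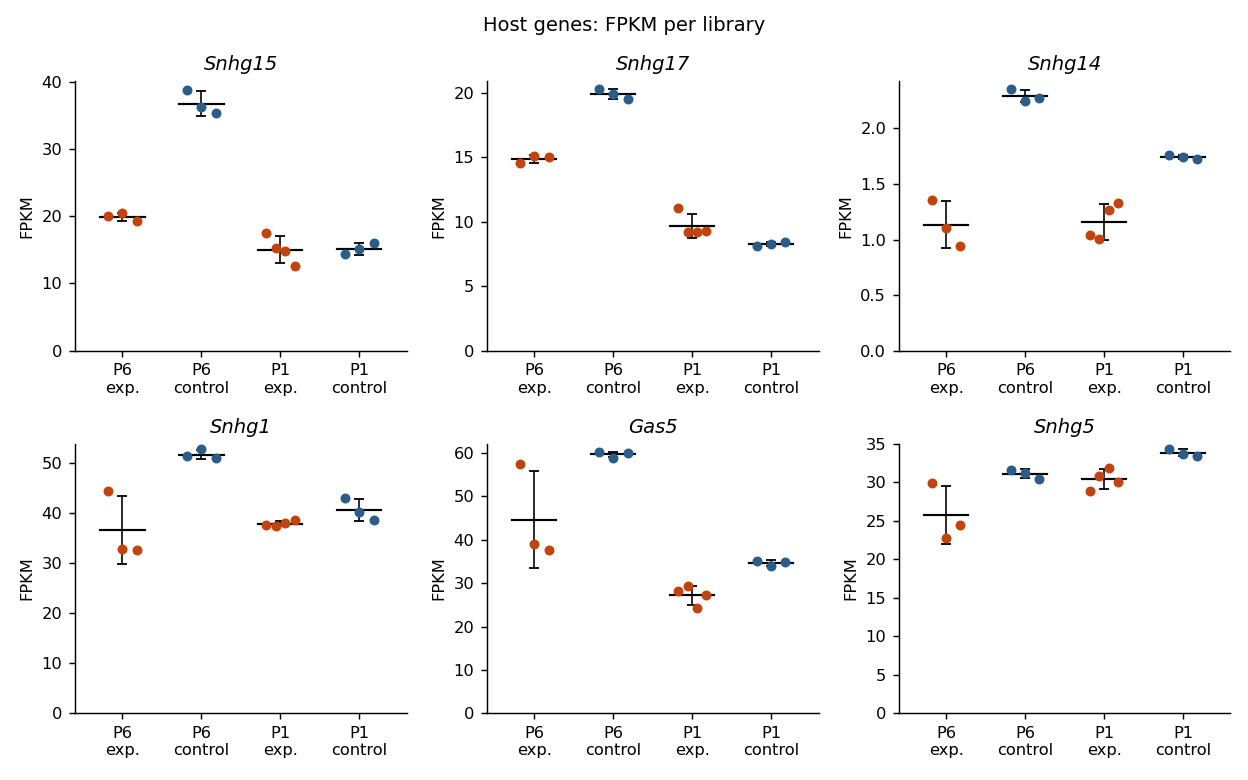
FPKM of 6 host genes in each library; points are libraries, lines are group means and bars 1 SD, with experimental (red, exp.) left of control (blue) and passage 6 (P6) left of passage 1 (P1). For Snhg15, Snhg17 and Snhg14 all 3 P6 experimental points lie together below the controls, while for Gas5 and Snhg1 1 experimental point, library 1, lies above the other 2.

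Gas5 (chr1:161034422-161038539, plus strand), named for its accumulation in growth arrest, and Snhg1 (chr19:8723475-8726443, plus strand) had the highest host levels. At passage 6 Gas5 had 57.4, 38.9 and 37.5 FPKM in experimental libraries and 60.1, 58.8 and 59.9 FPKM in control libraries, at -0.44 (SE 0.15, limma adjusted p = 0.0804). Snhg1 had 44.3, 32.9 and 32.5 FPKM in experimental libraries and 51.3, 52.7 and 50.9 FPKM in control libraries, at -0.50 (SE 0.11, limma adjusted p = 0.0244). For Gas5 experimental library 1 lay just below its controls, and for Snhg1 it lay further below them. Libraries 2 and 3, those with liver and brain transcripts, lay lower still in both genes. Snhg1 lost its call without a minimum FPKM and without any 1 library other than experimental library 1, at up to 0.0881. With library 1 alone its log2 change was -0.21. Snhg5 showed the same order, with 30.0, 22.8 and 24.4 FPKM in experimental and 31.6, 31.3 and 30.5 FPKM in control libraries, and was not called.

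With experimental library 1 alone, Snhg15, Snhg17, Snhg14 and Snhg1 were all lower, while Snhg6 and Snhg8, the last named after its values were seen, were higher, at 0.37 for Snhg6 and 0.36 for Snhg8 on the log2 scale (limma adjusted p = 0.0188 and 0.0327 in that order). Snhg6 had 22.5, 17.2 and 13.5 FPKM in experimental libraries of passage 6 and 16.2, 17.9 and 17.3 FPKM in control libraries, so its experimental values lie on both sides of the controls. Without experimental library 1, 8 of 11 tested hosts were lower, where 2411 of 12305 genes were lower over all genes. Snhg11, a host gene known from neurons and named after its values were seen, was listed at 0 in experimental library 1 and stood at 5.00 and 3.92 FPKM in experimental libraries 2 and 3, against at most 0.0313 FPKM in every other library. These are the libraries with brain myelin and glia transcripts.

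At passage 1 Gas5 had 28.2, 29.2, 24.2 and 27.3 FPKM in experimental libraries and 35.1, 34.0 and 34.9 FPKM in control libraries. All 4 experimental values lay below the controls, at a log2 change of -0.34 (SE 0.07, limma adjusted p = 0.00707). Snhg5 was called at -0.15 (SE 0.05, limma adjusted p = 0.0406) and Snhg6 at -0.16 (SE 0.05, limma adjusted p = 0.0434). Among other alternatives, both were lost under the replicate block, without any 1 control and without experimental library 1 or 4. Both were also lost under equal FPKM totals and under median-of-ratios scaling. Over all alternatives the adjusted p reached 0.255 for Snhg5 and 0.218 for Snhg6. Under either scaling Gas5 and Snhg14 were lower and Snhg17 was higher. Snhg1 gave -0.10 (SE 0.05, limma adjusted p = 0.150). The count of 4 hosts dropped to 1 without control library 1, 2 or 3 and to 2 without experimental library 1 or 4. It was 0 without control library 1 and experimental library 4 together, where limma gave 3 hosts at an unadjusted p under 0.05. Over all genes the count of 3792 dropped to 2083, 2053 and 2087 without those controls. It was 3612 and 2850 without those experimental libraries, and 976 without the 2 libraries together. Gas5 overlaps Zbtb37 and Snhg6 overlaps Mcmdc2 on the other strand.

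Transcripts of Gas5 and other hosts are known to begin with a run of pyrimidines that ties their translation, and so their decay, to growth signals. The promoters of Gas5 and Snhg15 are shown because they are the hosts called with the smallest adjusted p at passages 1 and 6, each with 100 bases before and 50 from the start, from RefSeq on GRCm38.p6, at chr1:161035066-161035215 and chr11:6528711-6528860. Capitals mark a C followed by at least 4 further C or T within 5 bases of the start in Gas5, and the E box CACGTG, which reads alike on both strands, in Snhg15.
Gas5: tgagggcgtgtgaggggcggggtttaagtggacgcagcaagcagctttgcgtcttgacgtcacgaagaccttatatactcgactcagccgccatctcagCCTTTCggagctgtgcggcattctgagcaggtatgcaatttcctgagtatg
Snhg15: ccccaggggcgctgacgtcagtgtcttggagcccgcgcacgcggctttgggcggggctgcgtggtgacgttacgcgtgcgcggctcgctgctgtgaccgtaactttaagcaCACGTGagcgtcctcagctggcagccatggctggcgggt
RefSeq promoters matched 15 of the 16 hosts, in 19 windows. The pyrimidine run was found in 7 of the 19 (36.8%), in 42.5% of 73 windows of ribosomal protein genes and in 18.4% of all 32851. CACGTG, searched over 250 bases before to 50 after the start, was found in 2 of the 19 (10.5%) and in 7.15% of all windows. A second Gas5 start held neither.

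The change at passage 6 minus the change at passage 1 was tested over the 13 libraries. Among the members 1 was called higher, Snora57, and 8 lower: Snora20, Snord59a, Snord82, Snord53, Snora31 and Snord98 among 51 tested small RNAs, and Snhg15 and Snhg17 among 12 tested hosts. Over all 13019 genes tested 14.7% were called, 8.46% higher and 6.27% lower. Snord82 and Snord53 were tested here through their passage 6 controls, so their calls support nothing. Snhg15 gave a difference of -0.83 (SE 0.12, limma adjusted p = 0.00137) and Snhg17 of -0.60 (SE 0.09, limma adjusted p = 0.00128), and both held in all 22 alternatives. Snora20 gave -1.43 (SE 0.28, limma adjusted p = 0.00616) and also held in all 22. It passed the filter in both groups at passage 6, but through its experimental libraries alone at passage 1. The passage 1 controls held only 0.463 to 2.26 fragments of Snora20, which limits this difference. Snora31 held in 21 of 22, with a limma adjusted p of 0.0648 under the replicate block. Snora57 held in 11 of 21, Snord53 in 8 of 21 and Snord59a in 7 of 22, with limma adjusted p of up to 0.137, 0.211 and 0.112 in that order. No library of either passage held more than 6.46 fragments of Snora57. Those of passage 1 held only 1.27 to 3.09 fragments of Snord59a. Snhg14, below its controls at both passages, gave -0.28 (SE 0.12, limma adjusted p = 0.120), and Gas5 gave -0.10 (SE 0.17, limma adjusted p = 0.746). Leaving out any 1 passage 6 control cut the count of 9 to 4 or 5, as leaving out passage 1 control library 2 did, to 5. Over all genes these fits called 1160, 1204, 1216 and 1227 in place of 1918.

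The sums need no filter and take in every member. Over all 130 small RNAs the summed level was 314, 297 and 268 FPKM in experimental libraries of passage 6 and 377, 375 and 358 FPKM in control libraries. The groups were apart, with means of 293 ± 23.3 FPKM in experimental and 370 ± 10.2 FPKM in control cells (SD, n = 3 each). C/D RNAs made up 228 ± 21.0 FPKM of it in experimental and 276 ± 7.84 FPKM in control cells, and H/ACA RNAs 59.1 ± 4.34 FPKM in experimental and 86.4 ± 4.86 FPKM in control cells. At passage 1 the sum was 164, 168, 132 and 128 FPKM in experimental and 173, 168 and 170 FPKM in control libraries: experimental libraries 1 and 2 were level with the controls and libraries 3 and 4 lower.

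Summed over the 16 hosts, the level was 237, 186 and 182 FPKM in experimental libraries of passage 6 and 264, 259 and 258 FPKM in control libraries, and 175, 173, 176 and 176 FPKM in experimental libraries of passage 1 and 196, 194 and 193 FPKM in control libraries. Both passages left a gap between the groups, and at passage 6 experimental library 1 was the nearest to the controls. These sums are descriptions with no test, since the members were chosen with results known. Levels of passages 6 and 1 come from separately deposited tables.

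Other short RNAs without a poly(A) tail were not lower in sum. Their list is not free of small nucleolar RNAs: it includes the Rnu3 genes and Rnu73b, whose symbols fall outside the rule. Summed over 24 such genes the level was 214, 124 and 173 FPKM in experimental libraries of passage 6 and 88.5, 88.6 and 86.4 FPKM in control libraries, and 54.1, 67.9, 62.4 and 67.3 FPKM in experimental libraries of passage 1 and 40.7, 37.2 and 43.0 FPKM in control libraries. Of 6 tested at passage 6, 4 rose and none fell, where 8.98% of all genes were called higher. They were Rn7sk, which restrains transcription elongation, at a log2 change of 1.73 (limma adjusted p = 0.0169), Rn7s1 and Rn7s2, near-identical copies of the signal recognition particle RNA between which fragments can be split, at 0.83 and 0.85, and Rpph1, the RNA of ribonuclease P, at 0.75. At passage 1, Rn7s1 and Rn7s2 rose, 2 of 3 tested, where 11.5% of all genes were called higher. Replication-dependent histones, whose messages also lack a tail, gave 1 higher of 5 tested at passage 6 and 3 of 6 at passage 1, and none lower. How the selection of tailed RNA differed between libraries was not measured, and its part in these values was not tested.

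**Figure D5:**
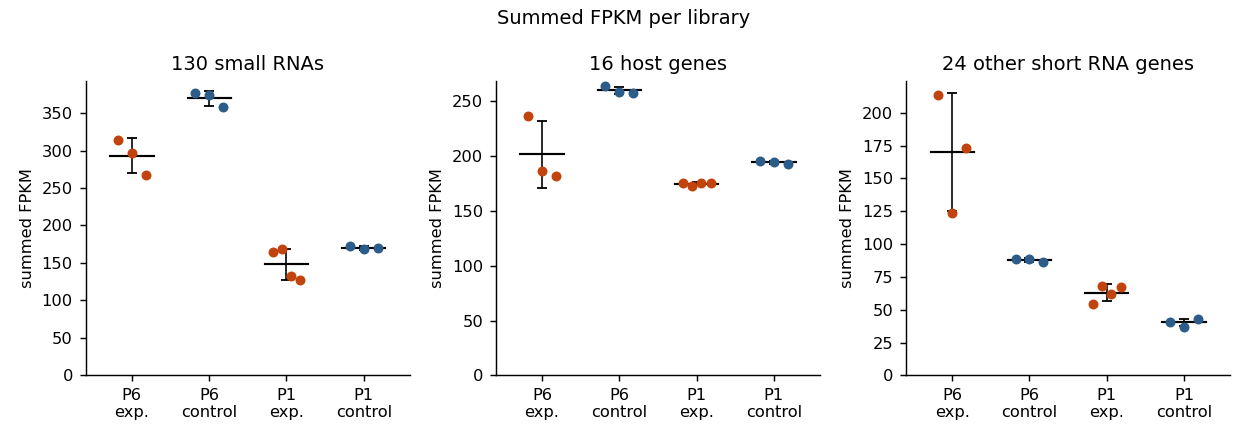
Summed FPKM per library of the 130 small RNAs, the 16 host genes and 24 other short RNA genes without a poly(A) tail; points are libraries, lines are group means and bars 1 SD, with experimental (red, exp.) left of control (blue) and passage 6 (P6) left of passage 1 (P1). At P6 the first 2 sums are lower in every experimental library and the last is higher in every one. The last sum includes the Rnu3 genes and Rnu73b, small nucleolar RNAs outside the symbol rule.

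Genes for the proteins that bind, build and trim these RNAs are read against the share of all genes called in either direction, 19.8% at passage 6 and 30.4% at passage 1. Of the 4 C/D core proteins Nop56 fell at passage 6, with 103 ± 4.53 FPKM in experimental and 134 ± 4.67 FPKM in control cells (SD, n = 3 each), and none was called at passage 1. Fibrillarin, the methyltransferase Fbl, gave -0.13 at passage 6 (limma adjusted p = 0.0937). None of the 4 H/ACA core proteins was called at either passage. Nhp2, the one with the highest level, gave -0.02 at passage 6 and -0.19 at passage 1, at limma adjusted p of 0.840 and 0.356. Beside that count of 0 by limma, 1 of the 4 had an unadjusted p under 0.05 at each passage, as had 36.4% of all genes at passage 6 and 43.0% at passage 1.

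Of 13 assembly factors, Ruvbl1, a helicase of the assembly machinery, rose and Coil, the Cajal body scaffold coilin, fell at passage 6, at log2 changes of 0.25 and -0.29. At passage 1 Ruvbl2 rose and Shq1 and Nolc1 fell. Of 15 tested factors of processing, trimming and decay none was called by limma at passage 6, with 1 at an unadjusted p under 0.05, and Exosc1, an exosome subunit, fell at passage 1 by 0.30 on the log2 scale. Of 10 nonsense-mediated decay factors Upf3a and Upf3b fell at passage 6, at -0.25 and -0.33, and Smg8 and Smg9 fell at passage 1, at -0.15 and -0.25. These 2 of 10 at passage 6 lie near the share of all genes and those at passage 1 below it. The median log2 changes of the decay list were -0.14 at passage 6 and -0.01 at passage 1, beside -0.04 and -0.05 over all genes.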

How the data were processed

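RNA of Neuro2a cells was measured in 13 libraries in 4 groups taken from the labels. The authors deposited FPKM in 1 table per passage, and cutadapt, HISAT2, StringTie, DESeq2 and edgeR with the mm10 build are named in the submitters' processing notes without versions or roles. Per the labels' protocols, RNA was poly(A)-selected and the second strand marked with dUTP; the strand setting of the counting is not given in the sources used here. Of 34857 gene IDs, 34731 matched a GRCm38 symbol, 1 gene with an empty cell was left out, and FPKM totals ran from 315034 to 354288 per library. The labels do not say if replicates were grown or frozen apart, so p-values measure the spread between these libraries, which may be technical.

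From the deposited FPKM, log2(FPKM + 1) was fitted per passage with limma 3.58.1 (intensity trend, R 4.3.3) over all genes reaching 1 FPKM in 3 or more libraries of a passage, two-sided, with Benjamini-Hochberg adjustment and a threshold of 0.05. Fold changes include the added 1 FPKM and understate the change of low genes. The fit was tested on simulated data. Hosts and places are from GENCODE M21 on GRCm38, the assembly also called mm10. Python 3.11.15 with pandas 2.3.3 and matplotlib 3.10.9 made the summaries. The members and lists were chosen with earlier results of these data known. Members were named by a rule: called members, at most 8 per direction and class, the 6 with the highest mean per class, Gas5 and Snhg1, at most 5 per direction for the difference between passages, and the hosts of named small RNAs; exceptions are stated. In each pathway list up to 3 called genes were named, or the highest where none was called. Same-numbered libraries did not deviate together, so none were paired. Alternatives were pseudocounts of 0.1 and 5 FPKM, no minimum or 5 FPKM, scaling by median-of-ratios factors or to equal totals, the replicate number as a block, and each library left out. Leaving out passage 6 experimental libraries 2 and 3 together, and passage 1 control library 1 and experimental library 4 together, was added after seeing the data. Some of the line's marker genes are not reported here.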

Additional observations from a re-analysis of the deposited data

Results flagged for a closer look

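Each of the 26 sets of 4 passage 1 experimental values was looked at for a library far from the other 3, which chance gives in about 1 set in 20. Snhg17 stood at 11.1 FPKM in experimental library 1, where the other 3 lay between 9.21 and 9.30 FPKM. Snord110 stood at 0.156 FPKM in experimental library 4, where the other 3 lay between 1.04 and 1.21 FPKM; none of the 4 held more than 1.39 fragments of it.

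For 8 of the named members the change at passage 6 differed from the change at passage 1 in limma's contrast over the 13 libraries. The difference on the log2 scale was -0.83 for Snhg15, -0.60 for Snhg17, -1.43 for Snora20, -0.87 for Snora31, -0.94 for Snord53, -1.23 for Snord59a and -1.19 for Snord82. It was 0.62 for Snora57, of which no library held more than 6.46 fragments. The passage 1 controls held only 0.463 to 2.26 fragments of Snora20. The call was lost in most alternatives for Snord59a and Snord53 and in 10 of 21 for Snora57, and Snord53 and Snord82 were tested through their passage 6 controls alone, so their calls support nothing.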

How the results depend on the processing

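No called change of a named member took the other sign under any alternative; changes that were not called did so in 16 values at passage 1 and 11 at passage 6. Among the named members, 21 results at passage 1 gave 308 alternative values, of which 261 stayed on the same side of the threshold, 39 lost the threshold and 8 gained it; at passage 6, 24 gave 324 with 275, 43 and 6, and for the difference 8 gave 170 with 131, 39 and 0. The pseudocount of 5 FPKM gave 5 lower small RNAs at passage 1 in place of 3. Without a minimum FPKM, 5 small RNAs were called at passage 6 in place of 11 and 5 members for the difference in place of 9. Leaving out 1 library gave 2 to 6 small RNAs and 1 to 4 hosts at passage 1, 4 to 17 small RNAs and 3 to 8 hosts at passage 6, and 4 to 12 members for the difference; over all genes it gave 2053 to 4069 calls in place of 3792 at passage 1 and 670 to 4257 in place of 2462 at passage 6. Numbers do not pair the libraries (same-number correlations from -0.207 to 0.225), and the fit with replicate number as a block gave 1 host and 1813 genes at passage 1, and 15 small RNAs, 4 hosts and 1438 genes at passage 6. Without passage 1 control library 1 and experimental library 4, 0 hosts and 976 genes were called, and 2 small RNAs, both higher, in place of 3 lower. Those 2 passed the filter through their experimental libraries alone, so their calls support nothing. Over all genes at passage 1, median-of-ratios scaling gave 1979 higher and 1577 lower in place of 1434 and 2358. The host sum at passage 1, experimental minus control, was -19.4 FPKM, and -13.7 under equal totals, -10.6 under median-of-ratios scaling and -16.6 without Snhg1. Without passage 6 experimental libraries 2 and 3 the small RNA sum differed by -56.0 in place of -77.0 FPKM and the host sum by -23.2 in place of -58.4 FPKM. Members under 5 FPKM gave no value at that minimum. The causes were not tested. Depth limits the small RNAs: 79 of 130 had a median under 1 fragment.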
